A study of Rattus norvegicus with 4 samples.

Results

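The genes of MHC class II antigen presentation were examined in glomerular RNA of rats injected with Adriamycin (ADR, doxorubicin). The 8 genes were chosen by symbol: the invariant chain Cd74, the class II chains RT1-Da, RT1-Db1, RT1-Ba and RT1-Bb, the DM chains RT1-DMa and RT1-DMb, and the transactivator Ciita. All 8 are among the 13261 genes with usable values, and none was chosen by its level. The 4 samples form a single group, ADR: male Wistar rats given the drug intravenously, whose glomeruli were isolated with sieves before poly(A) RNA was sequenced. Wistar is an outbred stock, so the animals need not carry the same RT1 alleles. The labels name more than a single harvest day and do not say which applied to these rats, and they give no age. Each sample is called a rat here, although the labels do not say whether glomeruli were pooled. No other group was analysed here, so levels, their spread between animals and the ratios between genes are what the data can show.

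MHC class II molecules are dimers of an alpha and a beta chain that carry peptides from endosomes to the surface of antigen-presenting cells, where CD4 T cells read them. RT1-D and RT1-B are the rat counterparts of human HLA-DR and HLA-DQ. Cd74 chaperones new dimers and blocks their groove, and the DM dimer removes the last fragment of Cd74 so that peptide can bind. Ciita does not bind DNA itself: it joins the RFX, CREB and NF-Y proteins that sit on the X and Y boxes of class II promoters. Macrophages, dendritic cells and B cells express the system constitutively, and interferon gamma can induce it in endothelial and tubular cells.

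Promoter sequences are shown because they hold the element through which Ciita reaches its targets. RefSeq promoters (build GRCr8), from 250 bases before to 50 after the start of the gene, were found for 6 of the 8 members, and the stretch that ends just after the Y box is printed here 5′ to 3′ on the strand of the gene. Capitals mark the Y box (ATTGG, or CCAAT in the other orientation) and, before it, matches to GNNACNG, a shortened X box that was chosen after the promoters had been read.
RT1-Da: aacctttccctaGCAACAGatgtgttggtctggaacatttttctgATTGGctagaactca
RT1-Db1: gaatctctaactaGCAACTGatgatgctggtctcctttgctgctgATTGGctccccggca
RT1-Ba: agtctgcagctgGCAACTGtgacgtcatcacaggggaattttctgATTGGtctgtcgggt
RT1-Bb: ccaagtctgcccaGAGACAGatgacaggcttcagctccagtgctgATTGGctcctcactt
RT1-DMa: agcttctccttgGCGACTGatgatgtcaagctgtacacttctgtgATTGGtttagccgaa
Cd74: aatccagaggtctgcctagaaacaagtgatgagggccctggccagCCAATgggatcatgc

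In GRCr8 these windows are chr20:4515321-4515380 (plus strand) for RT1-Da, chr20:4560228-4560287 (minus) for RT1-Db1, chr20:4576969-4577028 (plus) for RT1-Ba, chr20:4604165-4604224 (minus) for RT1-Bb, chr20:4712385-4712444 (minus) for RT1-DMa and chr18:56526972-56527031 (plus) for Cd74. A Y box on either strand was present in 6 of the 6 promoters and in 37.5% of all 33469 promoters of that length. The longer X box TNGNAACNG, followed within 10 to 30 bases by ATTGG in the same orientation, was found for RT1-Da, RT1-Db1 and RT1-Ba, against 0.26% of all promoters (87 of 33469). With the shortened X box the pair was found for 5 of the 6, against 3.71% of all promoters. That motif was chosen with these promoters in view, so the contrast is no measure of enrichment. Among 4 other class II promoters the longer pair was found for 1 and the shortened pair for 3. In the 5 members with the shortened pair the gap between the boxes was 25 or 26 bases. Their Y box began between 43 and 80 bases before the start. Cd74 differed in layout: its Y box lay in the CCAAT orientation, 189 bases before the start. These matches describe letters and show no binding. In the same annotation RT1-Db1, RT1-Ba and RT1-Bb are direct neighbours on chromosome 20, as are RT1-DMb and RT1-DMa, and no annotated gene overlaps any of the 8 members.

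Library totals ran from 13566962 to 16207027 reads over the genes used, and replicates are numbered 1 to 4 in the order of the sample list. Levels are given as CPM, reads scaled to a common library total, which are not corrected for transcript length. No transcript lengths were used here, so comparisons are between animals for a given gene, and where a gene is called the highest or lowest of a list this is by CPM and says nothing of transcript numbers. Intervals on a level or share are at 95% and cover counting error only. The 8 genes together took 0.14%, 0.172%, 0.142% and 0.127% of reads in replicates 1 to 4, a mean of 0.145% ± 0.019 (SD, n = 4). Counting error was small beside these differences: the Wilson interval was 0.17% to 0.174% in replicate 2 and 0.125% to 0.129% in replicate 4. Replicate 2 was highest and replicate 4 lowest, while replicates 1 and 3 overlapped. Mitochondrial genes took the most reads in replicate 2; with them out of the total, replicate 2 was still highest, at 0.197% against 0.138% to 0.157%.

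**Figure D1:**
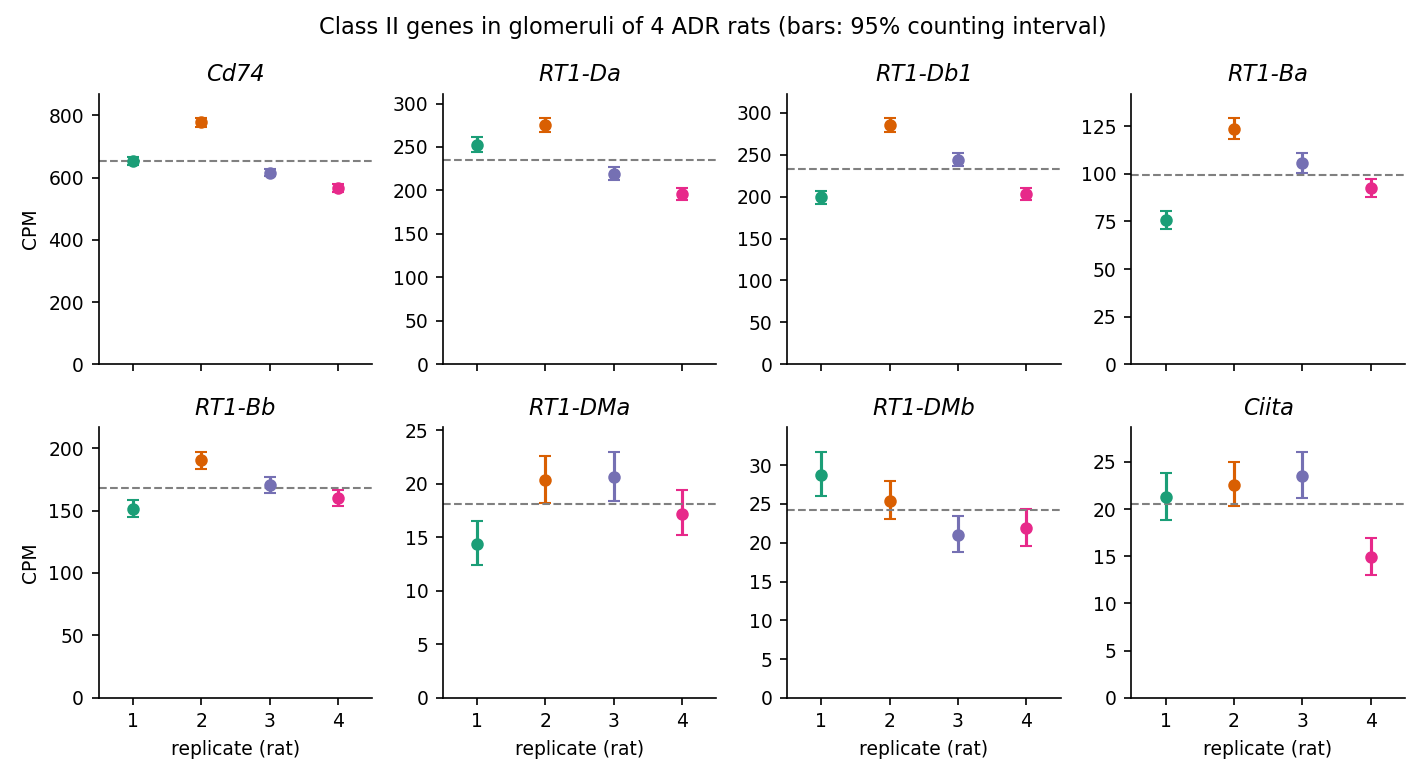
Level in CPM (linear axis from 0) of each of the 8 class II genes in replicates 1 to 4; bars are exact Poisson 95% intervals and the dashed line is the mean of the 4 rats. Replicate 2 is highest for Cd74 and the 4 RT1-D and RT1-B chains, replicate 1 for RT1-DMb, and replicate 4 stands low for Ciita.

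Among the peptide-presenting chains, RT1-Da (ENSRNOG00000032844), an alpha chain, stood at 253, 275, 219 and 196 CPM in replicates 1 to 4, a mean of 236 ± 35.2 (SD, n = 4). Its 4 counting intervals did not overlap, and replicate 2 exceeded replicate 4 by 1.41-fold. Its partner RT1-Db1 (ENSRNOG00000033215) stood at 199, 285, 244 and 203 CPM, a mean of 233 ± 40.4. Here replicates 1 and 4 were both low and overlapped, whereas replicate 1 had been second highest for RT1-Da. RT1-Ba (ENSRNOG00000000451), the alpha chain of the other pair, stood at 75.6, 124, 105 and 92.4 CPM, a mean of 99.3 ± 20.4. It had the largest range of the 8 genes, 1.64-fold between replicates 2 and 1, with no overlap between neighbouring animals. RT1-Bb (ENSRNOG00000032708), the beta chain, stood at 152, 190.4, 171 and 160.3 CPM, a mean of 168 ± 16.7, and had the smallest range, 1.26-fold. The order of the animals was that of RT1-Ba, but replicate 4 overlapped both replicate 1 and replicate 3.

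Cd74 (ENSRNOG00000018735), the invariant chain, stood at 653, 777, 616 and 566 CPM in replicates 1 to 4, a mean of 653 ± 90.2 (SD, n = 4). The animals followed the order of RT1-Da, with replicate 2 highest, replicate 4 lowest and no overlap between neighbours. Cd74 supplied between 43.4% and 46.8% of the reads of the 8 genes in each animal, a share that also depends on transcript length.

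The peptide exchange factor behaved unevenly between its chains. RT1-DMa (ENSRNOG00000047854) stood at 14.4, 20.3, 20.6 and 17.2 CPM, a mean of 18.1 ± 2.93 (SD, n = 4), so replicate 1 was lowest. RT1-DMb (ENSRNOG00000049491) stood at 28.7, 25.4, 21.0 and 21.9 CPM, a mean of 24.3 ± 3.53, and replicate 1 was highest. Depth limits these genes: RT1-DMa had 195 reads in replicate 1, the fewest of any member in any sample, and neighbouring animals overlapped for both chains.

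Ciita (ENSRNOG00000002659), the transactivator, stood at 21.2, 22.6, 23.5 and 14.9 CPM, a mean of 20.6 ± 3.89 (SD, n = 4). Replicates 1 to 3 overlapped, and replicate 4 lay below all of them, with an interval of 13.0 to 17.0 CPM. Replicate 4 was also lowest for RT1-Da and Cd74, but replicate 3, the highest for Ciita, was highest for none of the RT1-D and RT1-B chains or Cd74.

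The spread of each gene was then set against counting error. By a chi-square test on the reads recovered from the table, with p adjusted by Benjamini-Hochberg and a threshold of 0.05, all 8 members varied beyond Poisson sampling. So did 69.5% of the 13261 genes tested, and the count of 8 is read against a high background. Adjusted p ranged from 6.05e-126 for Cd74 to 0.000299 for RT1-DMa. For RT1-DMa and Ciita the call rested on a single rat: without replicate 1 the adjusted p of RT1-DMa was 0.097, and without replicate 4 that of Ciita was 0.483. The other 6 members kept the call with each replicate left out, RT1-DMb most narrowly, at an adjusted p of 0.044 without replicate 1. After subtraction of counting error, the coefficient of variation between animals ran from 9.72% for RT1-Bb to 20.4% for RT1-Ba, with a median of 14.9% over the members and 10.9% over all genes.

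Excess spread, relative to genes at similar levels, was tested with limma's abundance trend. At the same threshold on adjusted p it called 0 of 13261 genes (0%) and 0 of the 8 members, and no gene had an adjusted p below 0.912. That this test calls no gene was known from earlier work on these data, so its 0 says nothing particular of the members. At an unadjusted p under 0.05 it passed 5.47% of genes and again 0 members; the lowest member was RT1-Ba, at 0.102. Holding the dispersion trend fixed, a Pearson statistic on recovered reads called 7.53% of genes and 0 members, with RT1-Ba lowest at an adjusted p of 0.0893. On the log2 scale the SD of the members had a median of 0.23, beside 0.18 for all genes. RT1-Ba had an SD of 0.30, and 24 of the 200 genes nearest to it in mean level had a larger one. The SD of Cd74 was 0.19, with 94 of 200 above it, and that of RT1-Bb 0.14, with 106 of 200 above it. Several of these values rest on an animal: without replicate 2 the SD fell to 0.10 for Cd74, 0.16 for RT1-Db1 (from 0.24) and 0.09 for RT1-Bb, without replicate 1 to 0.14 for RT1-DMa (from 0.24), and without replicate 4 to 0.07 for Ciita (from 0.30).

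Direction across animals was compared next. Replicate 2 was the highest animal for 5 of the 8 members, RT1-Da, RT1-Db1, RT1-Ba, RT1-Bb and Cd74, and for 21.3% of all genes. It was lowest for 0 members and for 31.5% of all genes. Replicate 1 was lowest for 4 members, RT1-Db1, RT1-Ba, RT1-Bb and RT1-DMa, and for 35.0% of all genes. Replicate 4 was lowest for RT1-Da, Cd74 and Ciita and for 13.9% of all genes, and replicate 3 for RT1-DMb and for 19.6% of all genes. With trimmed-mean or median-of-ratios scaling, RT1-DMa also peaked in replicate 2 and RT1-Db1 was lowest in replicate 4; with mitochondrial genes out of the total only the first of these changes occurred. Averaged over the 4 chains and Cd74, the deviation from the mean of the 4 rats was -0.12, 0.27, 0.01 and -0.16 (log2) in replicates 1 to 4. Replicate 2 was also the lowest rat for 7 of the 8 podocyte genes; the part of glomerular makeup in the class II order was not tested.

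**Figure D2:**
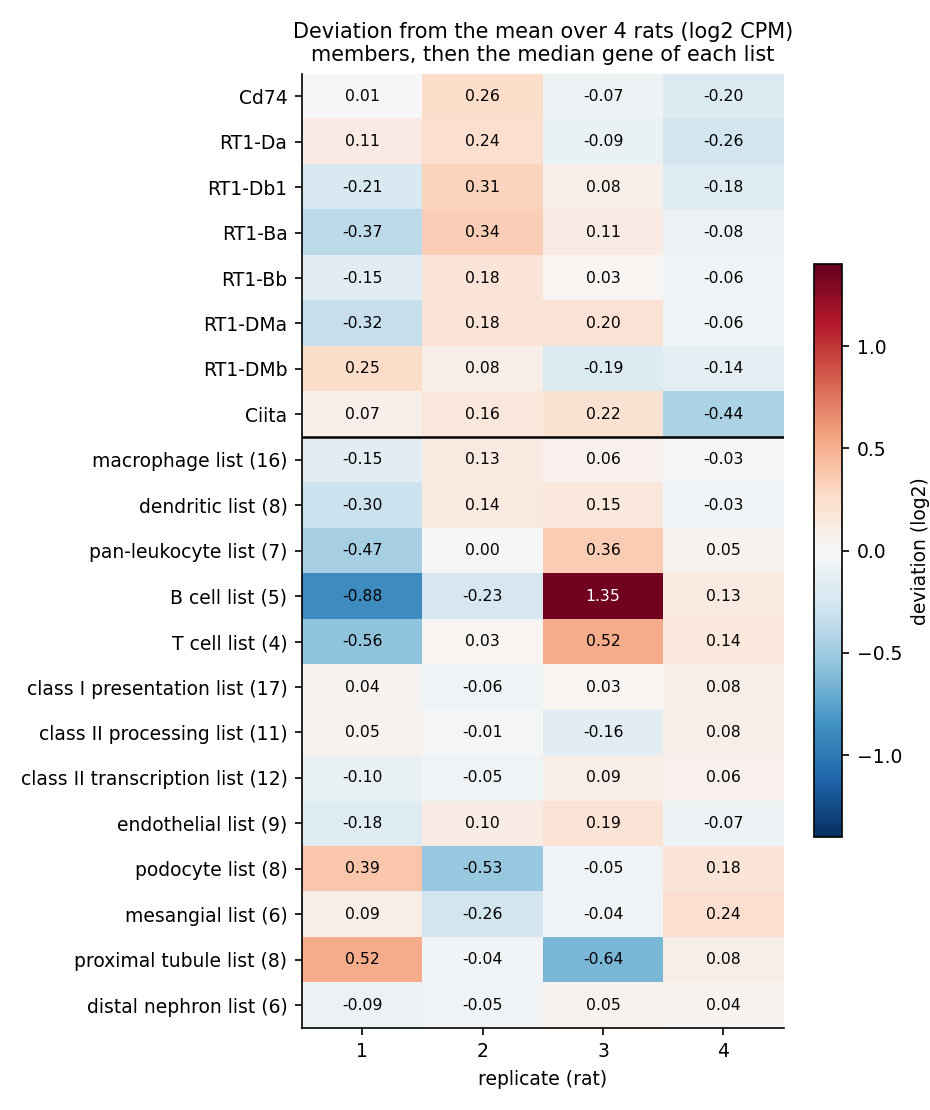
Deviation of log2 CPM from the mean over the 4 rats (columns, replicates 1 to 4) for the 8 class II genes and, below the line, the median deviation of the genes in each list, with the number of genes measured in brackets; red is above and blue below the mean. Replicate 2 is red for all 8 class II genes, whereas the B cell list is highest in replicate 3 at 1.35 and the podocyte list is lowest in replicate 2 at -0.53.

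Because alpha and beta chains pair in equal numbers, the share of the alpha chain in the reads of each pair was compared between animals; scaling between libraries cancels in this share, but the share still depends on the lengths of both transcripts. RT1-Da took 55.9% of the RT1-D reads in replicate 1 (95% Wilson interval 54.7% to 57.1%). In replicates 2 to 4 it took 49.1%, 47.3% and 49.0%, with intervals that overlapped each other and lay between 46.1% and 50.3%. RT1-Ba took 33.3% of the RT1-B reads in replicate 1 (31.6% to 35.0%), against 39.4%, 38.2% and 36.6% in the others. The interval of replicate 4 adjoined that of replicate 1 without overlapping it, and those of replicates 2 and 3 lay higher. RT1-DMa took 33.3% of the DM reads in replicate 1 (29.6% to 37.3%) and 44.4%, 49.5% and 44.0% in replicates 2 to 4, whose intervals all lay above that of replicate 1. In each of the 3 pairs the counting interval of replicate 1 did not overlap those of the other rats, with more alpha chain for RT1-D and less for RT1-B and DM. Counting intervals leave out the spread between rats, and with 4 rats none of the 3 log2 ratios passed Dixon's test for a sample apart.

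**Figure D3:**
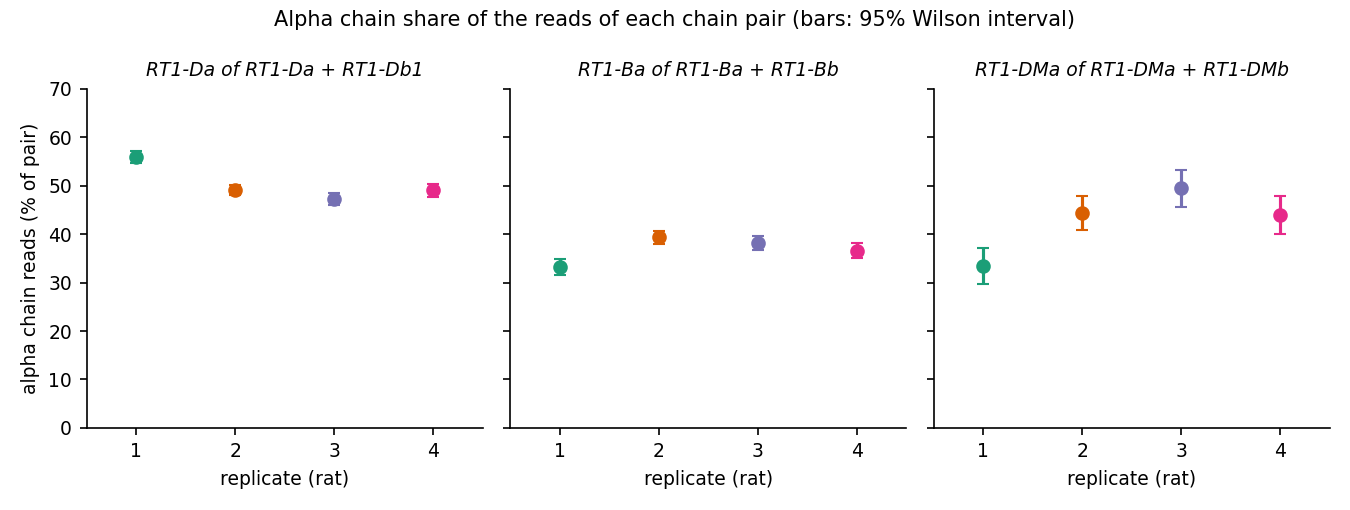
Alpha chain reads as a percentage of the reads of the pair, by replicate, for the RT1-D, RT1-B and DM pairs; bars are 95% Wilson intervals. Replicate 1 lies above the other rats for RT1-D, at 55.9%, and below them for RT1-B and DM, at 33.3% in both.

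On the log2 scale, with no correction for length, the alpha to beta ratio had an SD of 0.22 for RT1-D, 0.17 for RT1-B and 0.41 for DM (n = 4). The ratio of Cd74 to the mean of the 4 chains was 2.08, 1.91, 1.81 and 1.86 in replicates 1 to 4, an SD of 0.12. These 4 SDs rest on replicate 1: without it they were 0.059 for RT1-D, 0.087 for RT1-B, 0.18 for DM and 0.050 for Cd74 to the chains. The ratio of Ciita to the 4 chains was -2.87, -3.20, -2.90 and -3.38, an SD of 0.25, so Ciita was low relative to the chains in replicates 2 and 4. RT1 genes form a family of similar copies and variable alleles, and the division of reads between them by the authors' counting is uncertain. The 6 RT1 genes of the class I list spread unequally between these animals, from 1.12-fold for RT1-S3, 1.13-fold for RT1-N3 and 1.18-fold for RT1-T24-4 to 1.47-fold for RT1-A2, 1.92-fold for RT1-A1 and 1.98-fold for RT1-CE10. RT1-N3 did not vary beyond counting error (adjusted p = 0.207). RT1-A1 stood at 929 CPM in replicate 1 and 1700.3 to 1782 CPM in the others, and RT1-CE10 at 562 and 503 CPM in replicates 1 and 4 and 284 and 312 CPM in replicates 2 and 3. The part that alleles or shared reads have in the ratios was not tested.

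Cell type markers were read beside the members, since sieved glomeruli can hold leukocytes and tubule fragments; in bulk RNA, fewer cells of a type and less RNA per cell cannot be told apart. Podocyte, endothelial and mesangial lists were present, with median levels of 9.20, 9.41 and 7.43 log2 CPM, and so was the proximal tubule list, at 8.11, beside 4.85 for all genes. Of the antigen-presenting cells, 16 of 18 macrophage genes were measured, with a median of 4.45 log2 CPM, and 8 of 13 dendritic cell genes, with a median of 3.65. Only 5 of 10 B cell genes, with a median of 1.79, and 4 of 10 T cell genes were measured; the others were not analysed here. Lyz2, a lysozyme of myeloid cells, was the highest macrophage gene in CPM at 357 ± 99.9 (SD, n = 4), and the fractalkine receptor Cx3cr1 the lowest at 9.12 ± 0.56. Zbtb46, a transcription factor of classical dendritic cells that endothelium also expresses, stood at 63.8 ± 11.5 CPM, and the lymph node homing receptor Ccr7 at 3.49 ± 1.29. Cd22 led the B cell list at 9.92 ± 3.4 CPM and the kinase gene Blk closed it at 2.25 ± 0.41. The T cell list ran from Cd4, which rat macrophages also carry, at 28.1 ± 5.05 to Cd3e at 2.12 ± 0.98, and the pan-leukocyte list from Cyba at 122 ± 17.6 to Cd53 at 21.4 ± 4.28. Ends of the kidney lists were Kdr at 1782 ± 307 and Vwf at 17.9 ± 4.17 CPM for endothelium, Des at 926 ± 180.3 and Cspg4 at 61.1 ± 5.44 for mesangium, Slc34a1 at 1556 ± 315 and Slc5a12 at 106 ± 35.9 for proximal tubule, and Umod at 333 ± 79.7 and Cldn16 at 5.76 ± 0.54 for distal nephron, whose list median was 5.67 log2 CPM.

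Summed over its genes, the macrophage list took 818, 949, 969 and 997 CPM in replicates 1 to 4, with replicate 1 lowest. Lyz2 set that order: without it, an alternative chosen after the values were seen, the sum was 596, 607, 549.9 and 552 CPM, with replicate 2 highest and replicate 3 lowest. Of the 16 macrophage genes, 8 peaked in replicate 2 and 8 were lowest in replicate 1, beside 21.3% and 35.0% of all genes. The median level of the list was lowest in replicate 4, whereas the median deviation of its genes was lowest in replicate 1, at -0.15 against -0.03 in replicate 4. The dendritic list took 147, 185, 199 and 161 CPM, the B cell list 12.3, 18.3, 44.2 and 22.7 CPM and the T cell list 38.8, 57.7, 66.7 and 53.4 CPM. Replicate 1 was lowest in the dendritic, B cell and T cell sums. All 5 measured B cell genes were highest in replicate 3, the highest rat for 29.6% of all genes, while the 4 chains and Cd74 were highest in replicate 2; the part of B cells in the class II reads was not tested. Cd79b, a signalling chain of the B cell receptor, stood at 1.70, 2.78, 11.7 and 4.66 CPM. Ptprc, the pan-leukocyte gene CD45, likewise peaked in replicate 3, at 108 CPM, against 48.4, 66.1 and 70.8 in replicates 1, 2 and 4. Genes within a list went different ways. By root-mean-square difference from the mean deviation of the 4 chains and Cd74 (log2, 4 samples), the nearest macrophage genes were Aif1 at 0.0615, Cd68 at 0.0678, Mrc1 at 0.0842 and Fcgr3a at 0.0851, and the farther ones included Lyz2 at 0.414. The nearest dendritic gene was Clec9a at 0.17, no closer than the size of the pattern itself, 0.166. These genes were picked out after their values were seen.

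In a comparison chosen after the values were seen, the mean log2 level of the 4 chains and Cd74 was set against the median of each list within each animal. These are the 5 members highest in replicate 2, and the mean leaves out RT1-DMa, RT1-DMb and Ciita. Against the macrophage list the difference was 3.37, 3.38, 3.29 and 3.37 in replicates 1 to 4, an SD of 0.043, the smallest of the 14 lists with at least 4 genes. Next came the dendritic list with an SD of 0.17, the endothelial and distal nephron lists with 0.18 each, and at the far end the proximal tubule list with 0.61 and the B cell list with 1.18. The macrophage value depends on how the list is summarised. It was 0.129, still the smallest, with list means, and 0.207, rank 3 of 14, with the log2 of summed CPM, where the dendritic list was smallest at 0.162. Without replicate 2 the dendritic list, at 0.0445, and the macrophage list, at 0.0469, changed places. All lists share the same 4 libraries, and which cells carried the class II transcripts was not tested.

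**Figure D4:**
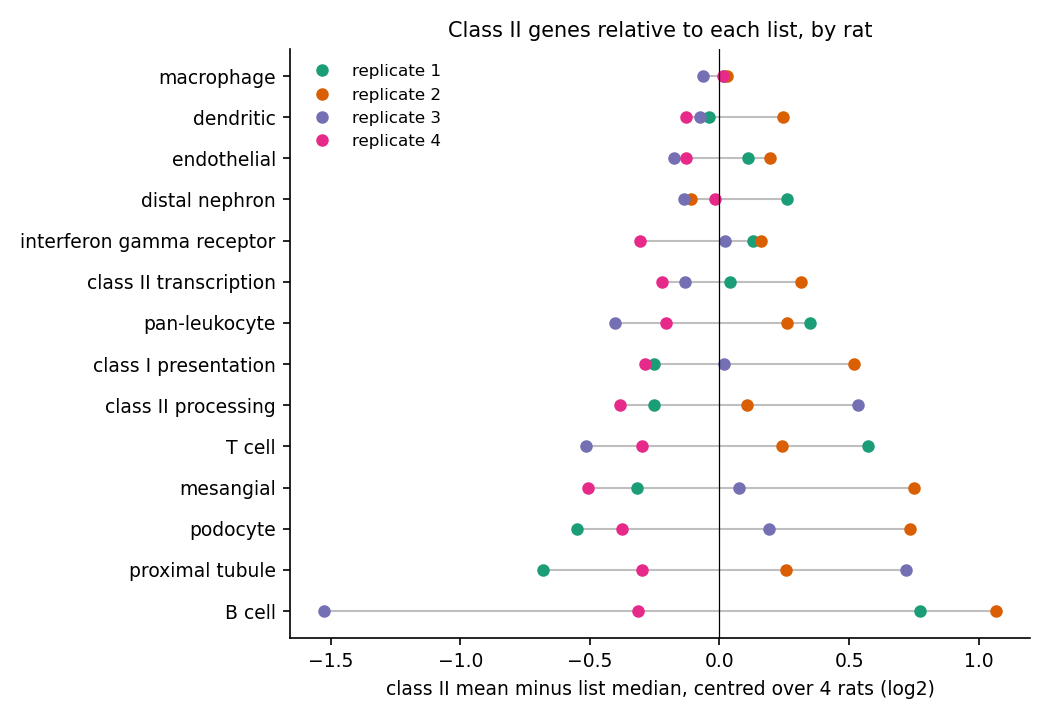
Mean log2 CPM of RT1-Da, RT1-Db1, RT1-Ba, RT1-Bb and Cd74 minus the median of each list within a rat, centred on the mean of the 4 rats (points, replicates 1 to 4; grey lines, range), with lists ordered by SD. The macrophage differences lie within 0.094 of each other, whereas those of the B cell list span 2.59.

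Other genes of the pathway are given by list. Of the 12 factors at class II promoters or upstream of Ciita, 8 varied beyond counting error, near the 69.5% of all genes. By limma's test, which called no gene at all, 0 passed, and the median SD of the 12 was 0.16. Irf4, a lymphoid and dendritic cell factor, was the lowest in CPM at 2.73 ± 0.57 (SD, n = 4). Replicate 2 was highest for 0 of these 12, beside 21.3% of all genes. Of the interferon gamma pathway, 7 of 8 genes were measured and 6 varied beyond counting error. The list ran from the kinase gene Jak1 at 321 ± 26.5 CPM to its inhibitor Socs1 at 10.1 ± 0.79, and Socs1 was the gene that did not pass (adjusted p = 0.459). All 11 measured genes of endosomal processing varied beyond counting error, beside 69.5% of all genes, and 9 of them were lowest in replicate 3, beside 19.6% of all genes. The protease gene Ctsb led that list at 1346 ± 387 CPM, and Ctss, whose product cleaves the invariant chain in antigen-presenting cells, was its lowest at 42.4 ± 4.58 CPM. Ctss stood at 40.1, 48.3, 37.7 and 43.4 CPM, with overlapping counting intervals in replicates 2 and 4. In this list 2 of the 11 genes were highest in replicate 2, near the 21.3% of all genes. Lgmn, the asparagine endopeptidase, stood at 803, 558, 347 and 585 CPM. Of this list it alone passed with the dispersion trend held fixed, at an adjusted p of 0.0244, while limma gave an adjusted p of 0.912. The proximal tubule list, too, was lowest in replicate 3, for 8 of 8 genes; its part in the processing genes was not tested. RT1-DOb, a chain of the DO dimer that restrains DM, stood at 6.52 ± 0.93 CPM and did not pass the counting-noise test (adjusted p = 0.13).

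The class I pathway served for comparison. Of its 17 genes, 15 varied beyond counting error, 0 passed limma's test and 1, RT1-CE10, was called at the fixed trend (adjusted p = 0.0177); over all genes these shares were 69.5%, 0% and 7.53%. B2m, the light chain of class I, was nearly level, at 1543, 1507, 1553 and 1656 CPM. Nlrc5, the class I counterpart of Ciita, was the lowest gene of the list in CPM and stood at 27.7, 18.8, 23.9 and 17.3 in replicates 1 to 4. Replicates 4 and 2 were the low animals for Nlrc5, with overlapping counting intervals, so which of them was lowest is not resolved. For Ciita replicate 4 was lowest and replicate 2 was not low. Replicate 2 was highest for 3 of the 17 class I genes and lowest for 9, beside 21.3% and 31.5% of all genes.

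By root-mean-square difference between deviations over the 4 samples, the genes outside the members most like the mean of the 4 chains and Cd74 were Slc6a9, at 0.0162, Chchd7, at 0.0201, Ccdc88c and Nudt8, at 0.0204 each, and Smagp, at 0.0212. In total 64 of 13137 genes compared lay within 0.05, and the root mean square of the pattern itself was 0.166. With 4 samples such closeness is a description only, and of these 5 genes just Ccdc88c and Smagp varied beyond counting error. Of the members within that mean, RT1-Db1 and RT1-Bb were nearest to it, at 0.063 each, and RT1-Ba farthest, at 0.145. Among the 13137 genes, 1664 lay closer than RT1-Da and 1946 closer than RT1-Ba. The 3 members outside the mean stood at 0.151 for RT1-DMa, 0.207 for Ciita and 0.234 for RT1-DMb, the last 2 beyond the size of the pattern itself. Each of the 5 members is part of the mean, which shortens its distance. Members inside and outside the mean therefore cannot be ranked against each other.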

How the data were processed

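The deposited table holds log2 values for 13265 genes in 4 samples. Read from the values, the deposited log2 values are log2 CPM with 0.5 reads added, and reads recovered from them were whole within 0.001. Per the submitters' processing notes, the tools were HISAT2, featureCounts (Subread) and limma with build Rnor_6.0; annotation release, strand setting and filter are not given in the sources used here. Displaced values led to 4 rows being left out. Variation beyond counting was tested on recovered reads with a Poisson dispersion index referred to chi-square on 3 degrees of freedom. Excess spread was tested with limma 3.58.1 (intercept only, trend) on log2(CPM + 1), and as an alternative by a Pearson statistic at a dispersion trend over 40 bins. P-values were adjusted over all 13261 genes and measure only the spread between these samples, which may be technical. Both tests were checked on simulated data.

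Planned comparisons of chains per kilobase were not run, since no transcript lengths were used here. The members and lists were chosen with earlier results of these data known. Named genes are the members, in each list the genes of highest and lowest CPM (for podocytes the median only; some are not reported here), class II list genes that a test called and the 5 most similar patterns; Cd79b, Ptprc, the RT1 class I genes, Clec9a, Aif1, Cd68, Mrc1 and Fcgr3a were picked after their values were seen.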

Additional observations from a re-analysis of the deposited data

Results flagged for a closer look

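A single rat set off from its 3 fellows, judged by the gap to the nearest value over the whole range (Dixon's critical value 0.829), was found in 1 of 64 results examined, where chance gives 3.2. None of the 8 members, their ratios or their share of reads was among them. The median of the endosomal processing list stood at 9.10, 9.12, 8.44 and 9.19 log2 CPM in replicates 1 to 4, with replicate 3 apart (ratio 0.873).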

How the results depend on the processing

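Of 283 recomputed values, 266 kept their direction and side of the threshold or moved by less than their yardstick. No level of a member moved by more than its SD, which leaving out 1 of 4 samples cannot bring about for a mean, so this shows little. RT1-Bb came near it with mitochondrial genes out of the total, at 7.53 against 7.39 log2 CPM, beside an SD of 0.14. Of the list levels 6 moved by more than their yardstick, each with list means in place of medians. The macrophage list, for example, went from 4.45 to 4.98. Replicate 2 stayed highest for at least 5 members with each scaling and without replicate 1, 3 or 4. Taking mitochondrial genes out of the total raised the median gene by 0.11 to 0.19 (log2). The count of genes with excess spread, 0 with limma, was 999 at the fixed dispersion trend, where 1 member (RT1-Ba) passed the threshold before adjustment; the cause was not tested. Across pseudocounts, a filter on low values, a robust prior and leaving out each replicate, limma called no gene. Since earlier work on these data had already given that outcome, its repetition shows little. The mean log2 ratio of RT1-Da to RT1-Db1, uncorrected for length, was 0.02; it changed sign to -0.0888 without replicate 1 and reached 0.0777 at most, without replicate 3. The SD of the class II mean (the 4 chains and Cd74, without RT1-DMa, RT1-DMb and Ciita) minus the macrophage list, 0.043, was 0.129 with list means, 0.207 with summed CPM and 0.00782 to 0.0515 with each replicate left out. The members' share of reads was 0.16% with mitochondrial genes out of the total. Depth limits RT1-DMa, RT1-DMb and Ciita, with 195 to 412 reads per sample.
Comparisons per transcript length, and the other length setting planned for them, were not run. No paired analysis was possible because there is a single group.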
